A study of Mus musculus with 4 samples.

Results

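The effect of losing XBP1 was read from both pairs of arrays whose labels differ in *Xbp1* and not in *Matn3*. The pools also differed in RNAs of the sex chromosomes and in markers of other tissues, given below. The pairs are XBP1 null against wild type rib chondrocytes, and double mutant against Matn3 mutant rib chondrocytes. These are all 4 of the 4 arrays of the series, 2 XBP1 null and 2 XBP1 intact, chosen by their *Xbp1* genotype and paired by their *Matn3* genotype. XBP1 null chondrocytes carried the deletion of *Xbp1* exon 2 by a Cre recombinase under the *Col2a1* promoter and wild type *Matn3*, and double mutant chondrocytes carried the same deletion with the V194D mutation of *Matn3*. Wild type chondrocytes had both genes intact, and Matn3 mutant chondrocytes carried V194D with intact *Xbp1*. Whether the mice of the XBP1 intact pools carried the Cre was not stated in the sources used here. All cells came from costal cartilage of C57BL6/J mice at postnatal day 5 and were freed by collagenase. Each array was hybridised to RNA pooled from 3 extractions, so that there is 1 array per genotype, no replicate of any genotype and no spread between animals. The deletion acts only in cells that have expressed the Cre, and other cells of the digest kept *Xbp1*. In such bulk RNA, fewer cells of a type and less RNA per cell cannot be told apart.

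XBP1 is a transcription factor of the unfolded protein response. When unfolded protein collects in the endoplasmic reticulum (ER), the sensor IRE1 cuts a short intron out of the *Xbp1* mRNA, and the protein made from the spliced mRNA switches on genes for ER chaperones, for ER-associated degradation and for transport between the ER and the Golgi. Cartilage chondrocytes secrete large amounts of collagen and proteoglycan and use this pathway heavily. The V194D mutation makes matrilin-3, a bridging protein of the cartilage matrix, misfold and stay in the ER.

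The signal of a probe set is its brightness on a linear scale, and a difference is given on the log2 scale after signals under 1 were set to 1, as XBP1 null minus XBP1 intact. Each gene is read on its brightest probe set unless another is named. The 4 arrays had a median signal of 43.8 each over 45037 probe sets, with 8.36% to 10.9% of signals under 1, and the log2 signals of any pair of arrays correlated at 0.956 to 0.974 (Pearson, across probe sets that are not independent). The 18193 genes had a median mean difference of 0.15 on their brightest probe sets, which quantile normalisation brought to 0.05, so small differences that a whole list shares are to be read against that shift.

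*Xbp1* mRNA was measured by 4 probe sets. The brightest had a signal of 7877 in XBP1 null and 9548 in double mutant chondrocytes, against 8184 in wild type and 11403 in Matn3 mutant chondrocytes. A dimmer one had 1917 in XBP1 null and 2902 in double mutant chondrocytes, against 2297 in wild type and 4759.8 in Matn3 mutant chondrocytes, the largest difference of the 4 in the Matn3 mutant pair (-0.71). The dimmest of them had 117 in XBP1 null and 215 in double mutant chondrocytes, against 92.8 in wild type and 288 in Matn3 mutant chondrocytes, with opposite signs on the 2 backgrounds. No probe set of *Xbp1* was past 1.5-fold lower on both backgrounds. The part of the transcript that each one reads was not analysed here, and a probe set outside exon 2 does not check the deletion. Cartilage genes were bright in all 4 pools: *Col2a1*, the main collagen of cartilage, had 13435 and 13571 in the XBP1 null arrays, against 10187 and 13380.1 in the XBP1 intact arrays. *Acan*, the proteoglycan aggrecan, had 8242 and 10139 in the XBP1 null arrays, against 7475 and 9275 in the XBP1 intact arrays, and *Sox9*, the transcription factor that defines chondrocytes, had 5486 and 4216 in the XBP1 null arrays, against 3826 and 3765 in the XBP1 intact arrays. *Matn3* itself differed by -0.01. Of 26 genes of cartilage matrix, 1 was past 1.5-fold on both backgrounds, *Cilp*, and the median difference of the list was 0.10, against 0.15 for all genes.

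Some of the genes that XBP1 is reported to switch on hold its known binding letters close to their start. Motifs were searched on both strands, from 250 bases before to 50 bases after the start, in 14452 measured genes with a RefSeq promoter (GRCm38.p6). The ER stress response element, CCAAT and CCACG separated by 9 bases, was found in 4 of 27 reported targets (14.8%) and in 0.138% of all genes searched. The core CCACGT was in 14 of the 27 (51.9%) and in 11.9% of all genes, and TGACGTGG, which contains that core on its other strand, in 2 of the 27 (7.41%) and in 0.989%. Among the genes past 1.5-fold on both backgrounds, 0 of 629 higher and 0 of 248 lower genes with a promoter held the ER stress response element. With the element in only 0.138% of all genes, sets of this size would hold few or none in any case. Nothing is therefore read from these counts of 0. The core CCACGT was in 58 of those higher genes (9.22%) and in 29 of the lower ones (11.7%), shares near that of all genes. The 3 promoters below are shown because their genes had the lowest mean differences among the reported targets with the element or with TGACGTGG, each printed in the direction of its gene with the motif in capitals. *Creld2* lies on the plus strand (chr15:88819396-88819695), *Dnajc3* on the plus strand (chr14:118937682-118937981) and *Txndc11* on the minus strand (chr16:11134483-11134782).
Creld2: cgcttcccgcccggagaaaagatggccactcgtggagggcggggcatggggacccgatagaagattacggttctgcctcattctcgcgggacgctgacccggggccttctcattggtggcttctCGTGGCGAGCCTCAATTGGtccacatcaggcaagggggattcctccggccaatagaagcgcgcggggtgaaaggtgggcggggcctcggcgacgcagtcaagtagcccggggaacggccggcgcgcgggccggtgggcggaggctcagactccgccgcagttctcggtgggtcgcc
Dnajc3: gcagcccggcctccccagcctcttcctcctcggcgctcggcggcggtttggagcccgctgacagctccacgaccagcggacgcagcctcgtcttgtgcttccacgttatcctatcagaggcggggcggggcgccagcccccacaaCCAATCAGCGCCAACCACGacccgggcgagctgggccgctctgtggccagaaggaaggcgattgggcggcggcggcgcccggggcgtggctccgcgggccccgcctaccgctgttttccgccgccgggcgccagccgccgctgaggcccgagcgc
Txndc11: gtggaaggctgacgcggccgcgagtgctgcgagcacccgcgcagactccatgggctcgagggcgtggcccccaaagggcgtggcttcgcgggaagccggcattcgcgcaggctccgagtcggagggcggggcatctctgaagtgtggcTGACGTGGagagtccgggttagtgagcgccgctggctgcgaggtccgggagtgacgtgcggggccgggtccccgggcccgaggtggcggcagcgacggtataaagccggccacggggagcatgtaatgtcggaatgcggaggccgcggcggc

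None of the 35 measured reported targets of XBP1 was past 1.5-fold on both backgrounds in either direction. The median difference was 0.04 on wild type *Matn3* and -0.10 on V194D. By any amount, 8 targets were higher and 11 lower on both (22.9% and 31.4%), against 34.8% of all genes higher and 10.4% lower. On V194D alone 7 of the 35 targets were past 1.5-fold lower and 0 higher, against 1642 lower and 3171 higher of 18193 genes. On wild type *Matn3* alone 1 target was lower and 0 higher, against 2100 lower and 4230 higher of all genes. *Creld2*, an ER protein that binds misfolded matrilin-3, had 1509 in XBP1 null and 2009 in double mutant chondrocytes, against 1645 in wild type and 4667 in Matn3 mutant chondrocytes. It was 2.32-fold lower in the Matn3 mutant pair and 1.09-fold lower in the other. *Dnajc3*, an ER cochaperone that also restrains the kinase PERK, had 1769 in XBP1 null and 2102 in double mutant chondrocytes, against 2109 in wild type and 3525 in Matn3 mutant chondrocytes. In both genes the Matn3 mutant array stood above the other 3. *Sdf2l1*, a cofactor of the ER chaperone BiP, had 489 in XBP1 null and 1599.8 in double mutant chondrocytes, against 557 in wild type and 2608 in Matn3 mutant chondrocytes. *Sec11c*, a subunit of the signal peptidase, had 886 in XBP1 null and 849 in double mutant chondrocytes, against 1019.8 in wild type and 1668 in Matn3 mutant chondrocytes, and *Edem1*, which directs misfolded glycoproteins to degradation, had 959.5 in XBP1 null and 1085 in double mutant chondrocytes, against 1064 in wild type and 1632 in Matn3 mutant chondrocytes. These 5 genes were lower on both backgrounds, and in each the difference in the Matn3 mutant pair was the larger. Other probe sets did not bear this out on wild type *Matn3*: the 4 others of *Dnajc3* were higher there, by 0.07 to 0.51, and so was the other one of *Edem1* (0.41). On V194D all 5 of these were lower, by -0.60 to -0.26. The other probe set of *Sec11c* was lower on both. *Txndc11*, a thioredoxin-domain protein of the ER, had 62.1 in XBP1 null and 112 in double mutant chondrocytes, against 121 in wild type and 156 in Matn3 mutant chondrocytes. It had the largest difference shared by both backgrounds among the reported targets, and its difference was the larger on wild type *Matn3* (-0.96 and -0.47). The brightest reported targets went different ways: *Herpud1*, of ER-associated degradation, had 8472 and 8760.5 in the XBP1 null arrays, against 7947 and 9694 in the XBP1 intact arrays. *Kdelr2*, which returns ER proteins from the Golgi, had 9431 and 9247 in the XBP1 null arrays, against 8519.8 and 8015 in the XBP1 intact arrays, with both null arrays the higher. *Hspa5*, which encodes BiP, differed by 0.03, and none of the 28 ER chaperones and foldases was past 1.5-fold on both.

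Across all genes the 2 differences did not go together. Their Pearson correlation was -0.08 and their Spearman correlation -0.13 over 18193 genes, and 48.4% of the 17003 genes with a difference on both backgrounds had the same sign on both. The 2 differences share no array. Split by mean signal into 4 groups of equal size, the Pearson correlation was -0.03, -0.09, -0.17 and -0.31 from the dimmest to the brightest group. In the brightest of these groups the SD over genes was 0.44 on the wild type background and 0.30 on V194D. Among genes at or above the median signal, the wild type array correlated at 0.939 to 0.955 with the other arrays, which correlated at 0.962 to 0.977 with each other. The share of that array in the low correlation of the differences was not tested.

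**Figure D1:**
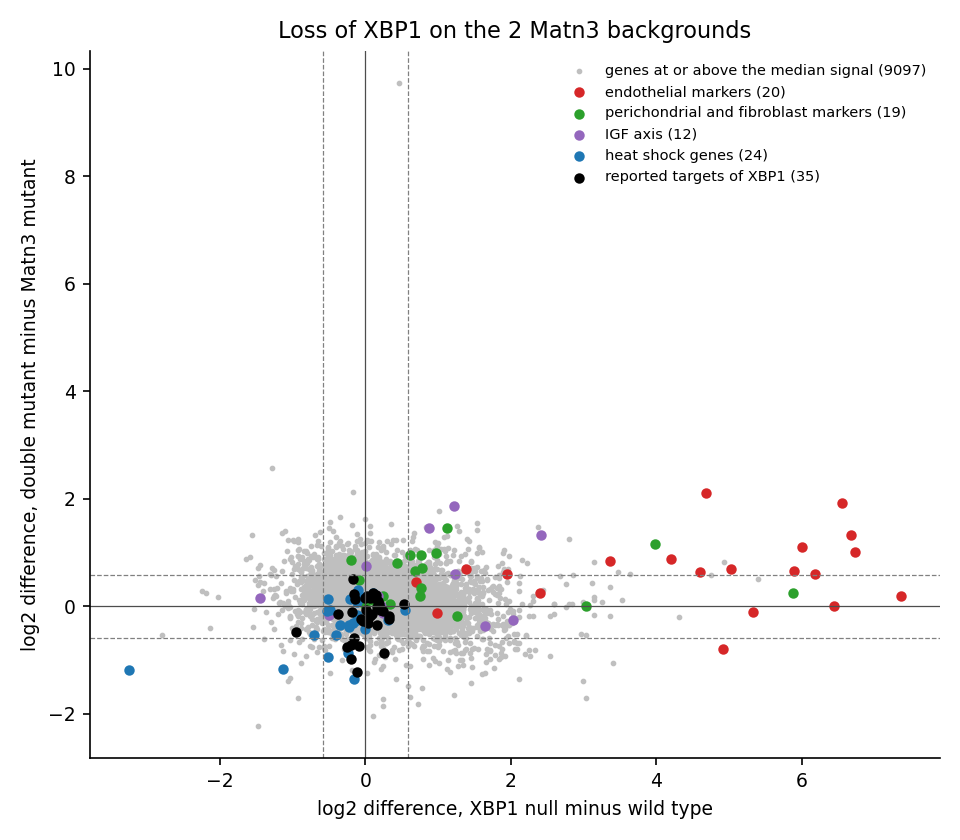
Log2 difference of each gene at or above the median signal in XBP1 null minus wild type (x axis) and in double mutant minus Matn3 mutant chondrocytes (y axis), with members of 5 gene lists in colour whatever their signal. Dashed lines mark 1.5-fold; the endothelial markers spread to the right, and none of the 35 reported targets of XBP1 lies past 1.5-fold the same way on both axes.

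Genes that passed 1.5-fold the same way on both backgrounds were more often higher than lower in the XBP1 null arrays. Of 18193 genes, 846 were higher (4.65%) and 327 lower (1.80%); at or above the median signal, 149 of 9097 were higher (1.64%) and 20 lower (0.220%). Of the 4230 genes higher by that much on wild type *Matn3*, 20.0% were also higher on V194D, and of the 3171 higher on V194D, 26.7% were also higher on wild type *Matn3*. For lower genes these shares were 15.6% of 2100 and 19.9% of 1642. A further 1282 genes passed 1.5-fold with opposite signs. In a limma fit of all 4 arrays with *Xbp1* and *Matn3* as additive effects, 0 of 45037 probe sets (0.00%) had an adjusted p under 0.05 for the loss of XBP1 (Benjamini and Hochberg), with 1066 higher and 986 lower at an unadjusted p under 0.05. The smallest adjusted p was 0.819, and the fit has 1 residual degree of freedom. An exact permutation test of 2 arrays against 2 cannot give a p under 0.333. The differences below are therefore given as values on each background, with the standard error of limma, and none is a tested change.

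The 12 genes with the largest shared upward difference above the median signal were *Ifitm10*, *Mgst1*, *Thbs4*, *Igfbp3*, *Aplnr*, *Olfml2b*, *Hes1*, *Mfap5*, *Egfl6*, *Igf1*, *Cilp* and *Dpt*. In all 12 both XBP1 null arrays stood above both XBP1 intact arrays, which the choice by shared difference largely fixes and nothing is read from; over all genes this held in 22.7%. Of 7 other probe sets that name these genes, 7 were past 1.5-fold higher on both backgrounds as well.

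The growth factor *Igf1* and several of its binding proteins were higher without XBP1. IGF-1 drives the growth of cartilage, and the binding proteins hold it in the matrix and in the circulation. *Igf1* had a signal of 1825 in XBP1 null and 1267 in double mutant chondrocytes, against 781 in wild type and 349.7 in Matn3 mutant chondrocytes, a mean difference of 1.54 ± 0.237 (limma standard error, adjusted p = 0.819). All 4 probe sets of *Igf1* were past 1.5-fold higher on both backgrounds. *Igfbp3*, the main carrier of IGF-1 in blood, had 722 in XBP1 null and 231 in double mutant chondrocytes, against 135 in wild type and 91.5 in Matn3 mutant chondrocytes. *Igfbp5*, which binds to bone and cartilage matrix, had 1884 in XBP1 null and 1293 in double mutant chondrocytes, against 1032 in wild type and 474 in Matn3 mutant chondrocytes, 1.16 ± 0.22 on average, although a dim second probe set had 88.1 in XBP1 null and 77.3 in double mutant chondrocytes, against 143 in wild type and 71.7 in Matn3 mutant chondrocytes. *Igfbp6*, which prefers IGF-2, had 430.2 in XBP1 null and 272 in double mutant chondrocytes, against 183 in wild type and 180.1 in Matn3 mutant chondrocytes. In these 4 genes the null array was above the intact array on each background. Of 12 measured genes of the IGF axis, these 4 were past 1.5-fold higher on both (33.3%, against 4.65% of all genes) and 0 were lower. *Igf2*, the brightest of the list, had 16061 and 16652 in the XBP1 null arrays, against 13835 and 16659 in the XBP1 intact arrays, and the receptor genes *Igf1r* and *Igf2r*, named after their values were seen, differed by 0.06 and -0.33. The study names *Igf1*, *Igfbp3*, *Igfbp5*, *Ibsp*, *Col1a1* and *Vegfc* as higher without XBP1 from these same arrays, so the 5 of these 6 that passed here are not independent evidence.

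Genes of matrix and secreted proteins were also among the higher genes, among them markers of perichondrium, tendon and fibrous tissue. *Thbs4*, a thrombospondin of tendon and cartilage, had 3802 in XBP1 null and 2826 in double mutant chondrocytes, against 1310.3 in wild type and 1057 in Matn3 mutant chondrocytes, a mean difference of 1.48 ± 0.0974 (limma standard error, adjusted p = 0.819). *Cilp*, a protein of the middle layer of cartilage that binds growth factors, had 2350.4 in XBP1 null and 1444 in double mutant chondrocytes, against 874 in wild type and 622 in Matn3 mutant chondrocytes. *Olfml2b*, a secreted olfactomedin-domain protein, had 1005 in XBP1 null and 549.8 in double mutant chondrocytes, against 409.7 in wild type and 208 in Matn3 mutant chondrocytes. *Egfl6*, a secreted protein with epidermal growth factor repeats, had 355 in XBP1 null and 346 in double mutant chondrocytes, against 134 in wild type and 145 in Matn3 mutant chondrocytes. In each of these 4 genes the size of the difference was close on the 2 backgrounds, between 1.21 and 1.54. *Dpt*, dermatopontin, and *Mfap5*, a microfibril protein, were uneven: *Dpt* had 871 in XBP1 null and 276 in double mutant chondrocytes, against 55.3 in wild type and 124 in Matn3 mutant chondrocytes, and *Mfap5* had 1155 in XBP1 null and 364 in double mutant chondrocytes, against 166 in wild type and 152 in Matn3 mutant chondrocytes. Of the 19 measured perichondrial and fibroblast markers, 7 were past 1.5-fold higher on both backgrounds (36.8%, against 4.65% of all genes) and 0 lower (1.80% of all genes), and the median difference was 0.75 on wild type *Matn3* and 0.49 on V194D. *Col14a1*, a collagen of fibrous tissue, had 3874 and 3292 in the XBP1 null arrays, against 1973 and 1663 in the XBP1 intact arrays. *Aspn*, the proteoglycan asporin, had 6482 and 3843 in the XBP1 null arrays, against 3825 and 1972 in the XBP1 intact arrays, and *Col5a2*, a fibrillar collagen chain, had 9346 and 5819 in the XBP1 null arrays, against 5444 and 3545 in the XBP1 intact arrays. *Thy1*, a surface marker of fibroblasts, had 368 and 113 in the XBP1 null arrays, against 169 and 41.3 in the XBP1 intact arrays. The null array was the higher in each pair, yet in *Aspn* and *Thy1* the double mutant value lay near or below that of wild type. The 2 brightest members, *Dcn* and *Lum*, differed by 0.11 and 0.22. The summed signal of the list was 119839 in XBP1 null and 100595 in double mutant chondrocytes, against 89049 in wild type and 76451 in Matn3 mutant chondrocytes.

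Genes of other functions were higher too. *Hes1*, a repressor that is a target of Notch signalling, had 852 in XBP1 null and 819 in double mutant chondrocytes, against 355 in wild type and 289 in Matn3 mutant chondrocytes, a mean difference of 1.38 ± 0.125 (limma standard error). *Ifitm10*, of the interferon-induced transmembrane family, had 604 in XBP1 null and 563 in double mutant chondrocytes, against 207 in wild type and 190.4 in Matn3 mutant chondrocytes, the most even of the 12 (1.54 and 1.56). *Mgst1*, a microsomal glutathione transferase, had 248 in XBP1 null and 211 in double mutant chondrocytes, against 48 in wild type and 75.8 in Matn3 mutant chondrocytes. *Ctsk*, the collagen-degrading protease cathepsin K and a marker of osteoclasts, had 1929.8 in XBP1 null and 2715 in double mutant chondrocytes, against 876 in wild type and 1275 in Matn3 mutant chondrocytes. In all 4 genes both null arrays were the higher. *Ctsk* was not joined by the other osteoclast markers: of 10, it and the dim *Calcr* were past 1.5-fold higher on both, *Mmp9* and *Oscar* were lower on both by any amount, and the median was 0.07.

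**Figure D2:**
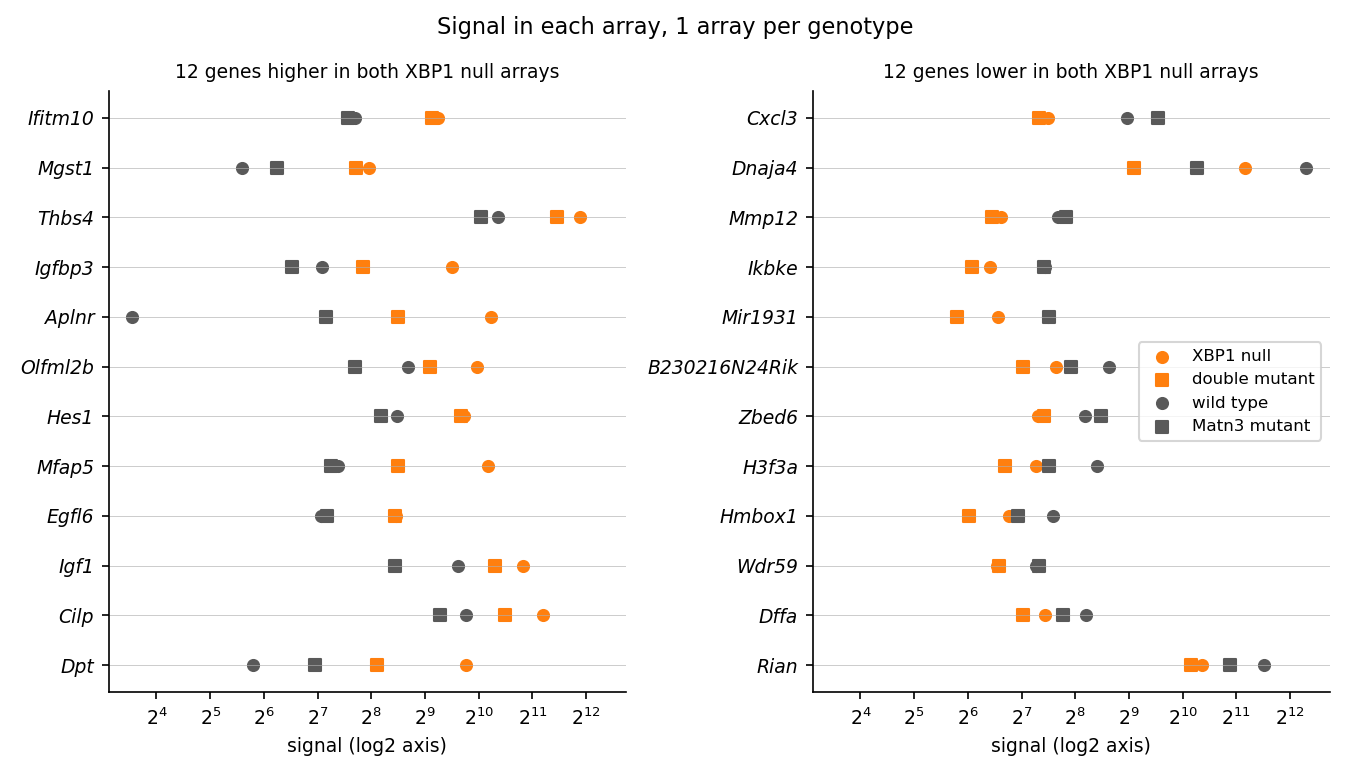
Signal of the 12 genes with the largest shared upward difference (left) and the 12 with the largest shared downward difference (right) in each array, on a log2 axis; orange marks XBP1 null and double mutant chondrocytes, grey marks wild type and Matn3 mutant chondrocytes, and squares mark the V194D background. In the left panel the orange points lie right of the grey ones in all 12 genes; in the right panel they lie left of them in 11, and *Dnaja4* is the exception.

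Markers of bone were also among the higher genes. Of 13 osteoblast markers, *Ibsp*, *Col1a1* and *Tnn* were past 1.5-fold higher on both backgrounds (23.1%, against 4.65% of all genes) and 0 were lower. On V194D alone 2 were past 1.5-fold lower, *Dmp1* and *Sost* of osteocytes, named after their values were seen, and *Sost* had the lowest mean difference of the list (-1.65). *Ibsp*, bone sialoprotein, had 140.2 in XBP1 null and 41.5 in double mutant chondrocytes, against 75.8 in wild type and 7.46 in Matn3 mutant chondrocytes. *Col1a1*, the main collagen of bone and fibrous tissue, had 7001 in XBP1 null and 4969.6 in double mutant chondrocytes, against 4591 in wild type and 2398 in Matn3 mutant chondrocytes, and *Tnn*, tenascin N, had 643 in XBP1 null and 100.2 in double mutant chondrocytes, against 319.5 in wild type and 51 in Matn3 mutant chondrocytes. The Matn3 mutant array was the lowest in each, and in *Ibsp* and *Tnn* the double mutant was below wild type. *Col1a2*, the partner chain of *Col1a1* and the brightest marker, had 14611 and 15744 in the XBP1 null arrays, against 12116 and 14466 in the XBP1 intact arrays. *Alpl*, the alkaline phosphatase of mineralising tissue, had 304 and 98.8 in the XBP1 null arrays, against 172 and 77.5 in the XBP1 intact arrays, and *Sp7*, the transcription factor osterix, had 218 and 145 in the XBP1 null arrays, against 133 and 126 in the XBP1 intact arrays, both past 1.5-fold on wild type *Matn3* alone. Of 11 hypertrophy markers only *Ibsp*, which is in both lists, passed on both.

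Markers of blood vessels had a median difference of 2.74, the largest of the marker lists of other cell types, and most of it came from the wild type background. All 20 endothelial markers were past 1.5-fold higher in XBP1 null than in wild type chondrocytes, with a median of 4.97; in double mutant against Matn3 mutant chondrocytes 13 were higher and 1 lower, with a median of 0.65. Thus 13 of 20 passed on both (65.0%, against 4.65% of all genes). *Plvap*, a protein of vessel fenestrae, had 558 in XBP1 null and 117 in double mutant chondrocytes, against 5.9 in wild type and 30.7 in Matn3 mutant chondrocytes. *Emcn*, the sialomucin endomucin, had 639 in XBP1 null and 119 in double mutant chondrocytes, against 6.01 in wild type and 58.7 in Matn3 mutant chondrocytes. *Cd34*, a marker of endothelial and progenitor cells, had 643 in XBP1 null and 139 in double mutant chondrocytes, against 9.96 in wild type and 65 in Matn3 mutant chondrocytes. *Aplnr*, the apelin receptor, had 1199 in XBP1 null and 360.3 in double mutant chondrocytes, against 11.7 in wild type and 143 in Matn3 mutant chondrocytes. The XBP1 null array was the highest in each of these 4 and the wild type array the lowest, under 12. *Ramp2*, a receptor partner, and *Egfl7*, a secreted vessel factor, the brightest members on average, had 614 and 361 in the XBP1 null arrays, against 379 and 264 in the XBP1 intact arrays, and 689 and 160.2 in the XBP1 null arrays, against 179 and 105 in the XBP1 intact arrays. The summed signal of the list was 9256 in XBP1 null and 2425 in double mutant chondrocytes, against 844.3 in wild type and 1516 in Matn3 mutant chondrocytes, and 0, 1, 2 and 1 members were under 1 in these arrays. *Pecam1*, a defining endothelial marker named after its values were seen, was under 1 in every array but XBP1 null, where it was 87.7.

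Other marker lists differed from the endothelial one and from each other. Of 15 genes of basement membrane and elastic fibres, 4 were past 1.5-fold higher on both (26.7%, against 4.65% of all genes) and the median was 1.43 on wild type *Matn3* and 0.32 on V194D. *Col4a1*, the collagen of basement membranes, had 5937 in XBP1 null and 1716 in double mutant chondrocytes, against 824 in wild type and 1144 in Matn3 mutant chondrocytes, and *Col18a1*, which yields endostatin, had 522 in XBP1 null and 281 in double mutant chondrocytes, against 147 in wild type and 166 in Matn3 mutant chondrocytes. Adipocyte markers had medians of 1.60 and 0.35, with *Fabp4*, the fatty acid binding protein of fat and of capillaries, at 4285 in XBP1 null and 1154 in double mutant chondrocytes, against 493 in wild type and 858 in Matn3 mutant chondrocytes. Skeletal muscle markers had medians of 0.94 and 0.78, with 6 of 18 past 1.5-fold higher on both (33.3%, against 4.65% of all genes). Of these 6, *Ckm*, *Myh2*, *Myh4* and *Myh8* had signals of 22.4 or less in every array. The summed signal of the muscle list was 2894 in XBP1 null and 2952 in double mutant chondrocytes, against 3354 in wild type and 2105 in Matn3 mutant chondrocytes, so the sums went opposite ways on the 2 backgrounds. Its brightest member, *Tnnt3*, a troponin of fast muscle, had 1906 and 2406 in the XBP1 null arrays, against 2779.9 and 1829 in the XBP1 intact arrays, with opposite signs. Epithelial markers had medians of opposite sign, 1.25 and -0.82, and so did osteoclast markers, 0.57 and -0.24. Leukocyte markers had 0.55 and 0.00, and the 5 erythroid genes 0.24 and 0.79. Of the 149 higher genes above the median signal, 17 belong to one of the 9 lists of other cell types (11.4%), against 48 of all 9097 genes at that signal (0.528%). None of the 20 lower genes does. The share of vessel, fat, fibrous, bone or muscle tissue in the pools was not measured apart from these RNAs, and its part in the higher genes was not tested.

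**Figure D3:**
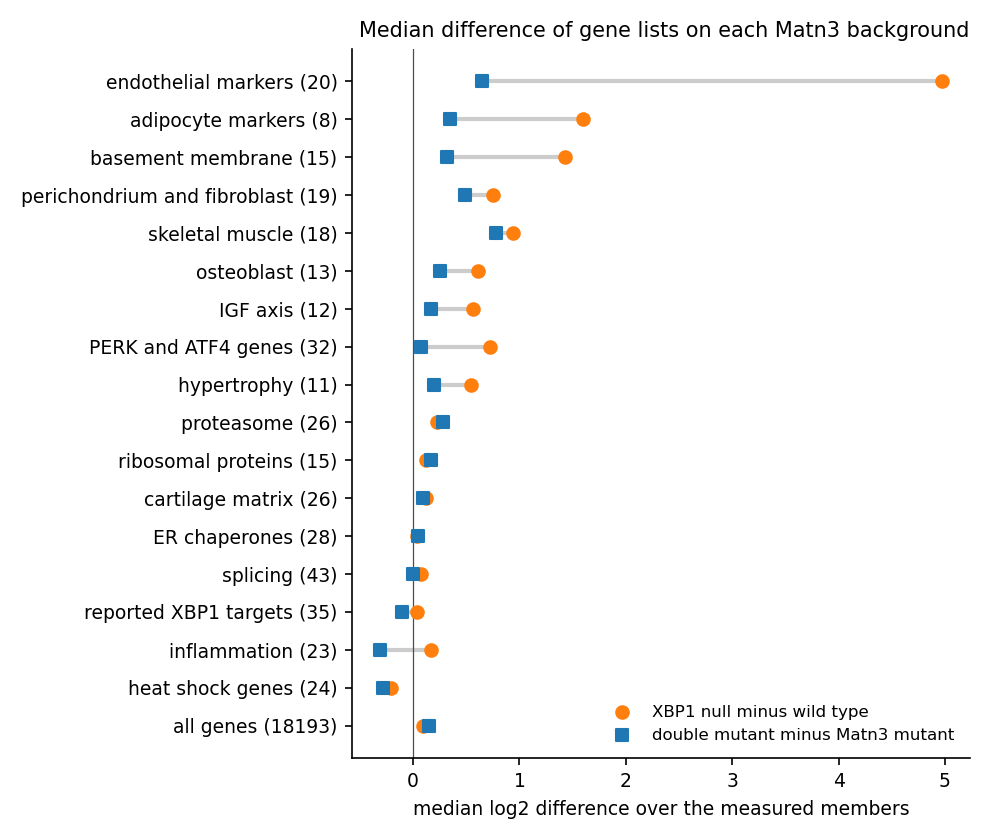
Median log2 difference over the measured members of 17 gene lists and of all genes (number of members in brackets) in XBP1 null minus wild type (orange circles) and in double mutant minus Matn3 mutant chondrocytes (blue squares). The 2 backgrounds lie farthest apart for the endothelial markers, at 4.97 and 0.65, and the heat shock genes lie below 0 on both.

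RNAs of the sex chromosomes differed between the pools. *Eif2s3y*, a gene of the Y chromosome, had 665 in XBP1 null and 856 in double mutant chondrocytes, against 484 in wild type and 0.032 in Matn3 mutant chondrocytes, and *Xist*, the RNA of the inactive X chromosome, had 5262 in XBP1 null and 4100.5 in double mutant chondrocytes, against 7393 in wild type and 9718 in Matn3 mutant chondrocytes. Both null arrays were thus lower in *Xist* and higher in *Eif2s3y* than both intact arrays, and the part of sex in other differences was not tested.

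At the lower end, the 12 genes with the largest shared difference above the median signal were *Cxcl3*, *Dnaja4*, *Mmp12*, *Ikbke*, *Mir1931*, *B230216N24Rik*, *Zbed6*, *H3f3a*, *Hmbox1*, *Wdr59*, *Dffa* and *Rian*. Both null arrays were below both intact arrays in 11 of them, which again follows largely from the choice; over all genes this held in 5.45%. *Cxcl3*, a chemokine that attracts neutrophils, had 179.9 in XBP1 null and 160.2 in double mutant chondrocytes, against 498 in wild type and 746 in Matn3 mutant chondrocytes, a mean difference of -1.84 ± 0.281 (limma standard error, adjusted p = 0.819). *Mmp12*, the macrophage elastase, had 98.8 in XBP1 null and 87 in double mutant chondrocytes, against 206 in wild type and 227 in Matn3 mutant chondrocytes, and *Ikbke*, a kinase of the NF-kB and interferon pathways, had 85.2 in XBP1 null and 67.8 in double mutant chondrocytes, against 174 in wild type and 170.2 in Matn3 mutant chondrocytes. None of these 3 is on the list of inflammation genes described next. *Rian*, a long noncoding RNA of the imprinted *Dlk1* and *Meg3* region, had 1310.4 in XBP1 null and 1140.5 in double mutant chondrocytes, against 2936 in wild type and 1882 in Matn3 mutant chondrocytes. *H3f3a*, which encodes histone H3.3, had 155 and 103 in the XBP1 null arrays, against 339.7 and 183 in the XBP1 intact arrays on the 1 probe set that names it alone. *Zbed6*, a transcription factor that represses *Igf2* in muscle, had 158 and 170.5 in the XBP1 null arrays, against 292 and 356 in the XBP1 intact arrays. *Dnaja4* and *Rian* were the brightest of the 12. Of 10 other probe sets of the 12 genes, 6 were lower on both and 5 past 1.5-fold, and 1, of *Hmbox1*, was higher on both.

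Among 23 genes of inflammation, 2 were past 1.5-fold lower on both (8.70%, against 1.80% of all genes), *Ccl20* and *Saa3*, and 1 higher (4.35%, against 4.65%), *Il1b*. The backgrounds went different ways: on wild type *Matn3* 8 were past 1.5-fold higher and 7 lower, with a median of 0.17, and on V194D 1 was higher and 7 lower, with a median of -0.31. *Ccl20*, a chemokine, had 23.4 in XBP1 null and 4.36 in double mutant chondrocytes, against 104 in wild type and 151 in Matn3 mutant chondrocytes, and *Saa3*, an acute phase protein, had 78 in XBP1 null and 112 in double mutant chondrocytes, against 122 in wild type and 189.8 in Matn3 mutant chondrocytes. *Il1b*, interleukin 1 beta, was dim, with 19.9 and 59.6 in the XBP1 null arrays, against 5.22 and 30.2 in the XBP1 intact arrays. *Tnf*, the tumour necrosis factor, had 19 and 39.9 in the XBP1 null arrays, against 129 and 52.9 in the XBP1 intact arrays, past 1.5-fold lower on wild type *Matn3* alone. The bright members *Nfkbia* and *Cxcl1* differed by 0.03 and 0.09.

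Heat shock genes were mostly lower on both backgrounds. The list holds cytosolic chaperones and the mitochondrial pair *Hspd1* and *Hspe1*. This response is separate from that of the ER: the factor HSF1 switches on chaperones that fold proteins of the cytosol. Of 24 measured genes, 16 were lower on both backgrounds by any amount (66.7%, against 10.4% of all genes) and 1 was higher (4.17%, against 34.8%). Their median difference was -0.21 on wild type *Matn3* and -0.28 on V194D, and -0.26 for the mean. Without *Hspd1* and *Hspe1*, 14 of 22 were lower on both, with a median of -0.23. From these same arrays the study reports *Dnaja4*, *Cryab*, *Hspa8* and *Hsp90aa1* as lower without XBP1 on both backgrounds. It reports *Hspa4l* and *Hspa1l* as lower in XBP1 null cartilage. *Dnaja1*, *Ahsa1* and *Hsph1* are also reported there as further decreased in Matn3 mutant chondrocytes without XBP1. The direction of these genes here is therefore not independent evidence. Of the 24, 2 were past 1.5-fold on both. *Dnaja4*, a cochaperone of HSP70, had 2306 in XBP1 null and 545 in double mutant chondrocytes, against 5054 in wild type and 1228 in Matn3 mutant chondrocytes, with -1.13 and -1.17 and a mean of -1.15 ± 0.0885 (limma standard error, adjusted p = 0.819). Its 2 other probe sets were also past 1.5-fold lower on both. The XBP1 null array was above the Matn3 mutant array, so the groups overlapped while each pair had nearly the same difference. *Hspa1l*, an HSP70 that is mostly of testis, had 14 in XBP1 null and 0.697 in double mutant chondrocytes, against 134 in wild type and 2.29 in Matn3 mutant chondrocytes. *Cryab*, a small heat shock protein, had 2060.0 in XBP1 null and 667 in double mutant chondrocytes, against 2955 in wild type and 1289 in Matn3 mutant chondrocytes. *Dnaja1*, an HSP40 cochaperone, had 7643 in XBP1 null and 3532 in double mutant chondrocytes, against 10067 in wild type and 5091 in Matn3 mutant chondrocytes. *Hspa4l*, an HSP110, had 131 in XBP1 null and 44.7 in double mutant chondrocytes, against 215 in wild type and 64.6 in Matn3 mutant chondrocytes. In all 5 the V194D background was lower than the wild type background for the same *Xbp1* genotype. The bright members *Hspa1b* and *Hsp90aa1* had 15397 and 12128 in the XBP1 null arrays, against 15413 and 16244 in the XBP1 intact arrays, and 13706 and 10885 in the XBP1 null arrays, against 15468 and 13484 in the XBP1 intact arrays.

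The letters bound by HSF1 were searched in the same promoters after the values had been seen, as TTC, GAA and TTC separated by 2 bases each, on both strands. They were found in 0.609% of all genes searched, in 1 of 248 genes past 1.5-fold lower on both backgrounds (0.403%) and in 5 of 629 past it higher (0.795%). Among heat shock genes with a promoter they were in 5 of 20, or in 3 of 18 (16.7%) without *Hspd1* and *Hspe1*, whose windows overlap and hold the same matches. They were in 1 of the 27 reported targets of XBP1. *Hspd1* and *Hspe1*, which encode the partner chaperones HSP60 and HSP10 of mitochondria, lie head to head and share most of this window, which is shown for *Hspe1* on the plus strand (chr1:55087898-55088197) with its 2 matches in capitals; the pair was chosen after its values were seen.
Hspe1: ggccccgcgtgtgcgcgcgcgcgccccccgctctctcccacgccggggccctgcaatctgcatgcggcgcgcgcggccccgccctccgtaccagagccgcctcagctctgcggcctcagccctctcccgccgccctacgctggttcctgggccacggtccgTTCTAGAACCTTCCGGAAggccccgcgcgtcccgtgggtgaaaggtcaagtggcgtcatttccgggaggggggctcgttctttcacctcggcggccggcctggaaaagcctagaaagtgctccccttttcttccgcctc
*Hspd1* had 8413 and 5118 in the XBP1 null arrays, against 10704 and 6522 in the XBP1 intact arrays, and *Hspe1* had 4676 and 2793 in the XBP1 null arrays, against 5503 and 3652 in the XBP1 intact arrays. Their differences were -0.35 and -0.35 for *Hspd1*, and -0.23 and -0.39 for *Hspe1*, lower on both backgrounds and within 1.5-fold.

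Which probe set of a gene was read changed the picture for RNA processing genes. From these arrays the study names 10 genes as examples of RNA splicing and protein folding genes lower without XBP1 on both backgrounds. Among them are the splicing factors and RNA-binding proteins *Rbm25*, *Rbm5*, *Srrm2*, *Tra2a*, *Prpf38b*, *Cpsf6* and *Mbnl1*. On their brightest probe sets 0 of the 10 were past 1.5-fold on both backgrounds, and their mean differences lay between -0.14 and 0.15. On their 31 other probe sets, 18 were past 1.5-fold lower on both and 0 higher, at least 1 in each of the 10 genes. Since the study chose these genes on the same arrays, this is no independent evidence of a direction.

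Single genes show the contrast. *Rbm25*, a splicing factor of nuclear speckles, had 2369.7 in XBP1 null and 2058 in double mutant chondrocytes, against 2096 in wild type and 1889 in Matn3 mutant chondrocytes on its brightest probe set. On a dimmer one it had 84 in XBP1 null and 86.2 in double mutant chondrocytes, against 201 in wild type and 221 in Matn3 mutant chondrocytes, a mean difference of -1.31. The third brightest of its 6 had 1049.7 in XBP1 null and 1070.4 in double mutant chondrocytes, against 1776 in wild type and 1839 in Matn3 mutant chondrocytes, a mean difference of -0.77, so the lower probe sets were not only dim ones. *Tra2a*, which activates splice sites, had 3280.0 in XBP1 null and 3565 in double mutant chondrocytes, against 3313 in wild type and 3579.6 in Matn3 mutant chondrocytes on the brightest probe set and 706 in XBP1 null and 395 in double mutant chondrocytes, against 1337 in wild type and 801 in Matn3 mutant chondrocytes on another. *Srrm2*, a scaffold of nuclear speckles, had 4325 in XBP1 null and 4127 in double mutant chondrocytes, against 5111 in wild type and 4056 in Matn3 mutant chondrocytes on the brightest and 295 in XBP1 null and 217 in double mutant chondrocytes, against 548 in wild type and 486 in Matn3 mutant chondrocytes on another. *Hspa8*, the constitutive HSP70, had 13303 in XBP1 null and 12175 in double mutant chondrocytes, against 14493 in wild type and 11457 in Matn3 mutant chondrocytes on the brightest, and 3999 in XBP1 null and 1181 in double mutant chondrocytes, against 10595 in wild type and 2393 in Matn3 mutant chondrocytes on the dimmest of its 4. In each of these 4 genes the brightest probe set was within 1.5-fold in both pairs, and the others given were past 1.5-fold lower in both, by 1.69-fold to 2.65-fold. *Pdia6*, an ER disulphide isomerase and a reported target of XBP1, had 4754 in XBP1 null and 8081 in double mutant chondrocytes, against 5382 in wild type and 8646 in Matn3 mutant chondrocytes on the brightest, and 37 in XBP1 null and 64 in double mutant chondrocytes, against 189 in wild type and 119 in Matn3 mutant chondrocytes on its other probe set.

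**Figure D4:**
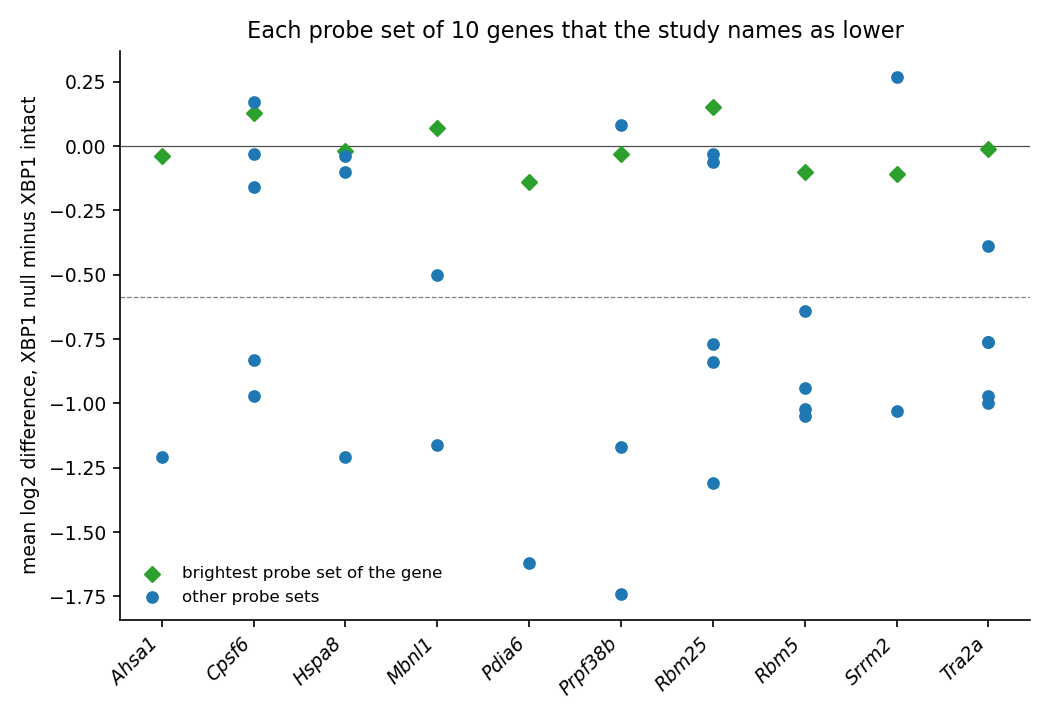
Mean log2 difference, XBP1 null minus XBP1 intact, of all 41 probe sets of 10 genes that the study names as lower; green diamonds mark the brightest probe set of each gene and blue circles the others, and the dashed line marks 1.5-fold lower. The green points lie between -0.14 and 0.15, and each gene has at least 1 blue point under the dashed line.

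A list of 43 splicing genes, which includes 7 of these 10, was read in the same way. In it, the brightest probe sets had a median difference of 0.03 with 0 past 1.5-fold on both backgrounds in either direction. *Ddx5*, an RNA helicase, and *Hnrnph1*, an RNA-binding protein, the brightest members, had 10672 and 11408 in the XBP1 null arrays, against 7438 and 10616 in the XBP1 intact arrays, and 9442 and 9204 in the XBP1 null arrays, against 8338 and 9544 in the XBP1 intact arrays. Their 114 other probe sets with a signal of 64 or more (geometric mean of the 4 arrays) held 17 past 1.5-fold lower on both (14.9%) and 0 higher. Over all genes, 227 of 7348 such dimmer probe sets were lower (3.09%) and 99 higher (1.35%). Most of the 17 belong to the 10 genes: without them 5 of 93 were lower (5.38%), against 2.90% over all genes without the 10. Nuclear long noncoding RNAs had 8 of 31 lower (25.8%), none of them in the 10 genes. The heat shock genes had 7 of 26 (26.9%), or 5 of 22 (22.7%) without *Hspa8* and *Ahsa1*, which are among the 10. From these same arrays the study also reports *Gas5*, *Kcnq1ot1*, *Rian*, *Dnaja4*, *Cryab* and *Dnaja1* as further decreased in Matn3 mutant chondrocytes without XBP1. The shares of both lists are therefore not independent evidence of a direction. *Malat1*, a long noncoding RNA of nuclear speckles, was lower on both on its brightest probe set, with 8869 in XBP1 null and 6014 in double mutant chondrocytes, against 12262 in wild type and 8189 in Matn3 mutant chondrocytes. The 21 dimmer probe sets of proteasome genes held 2 lower, and the 24 of ER chaperones 0. With the 10 named genes included, 4442 genes have a dimmer probe set of that signal. Of these, 3267 were within 1.5-fold on both backgrounds on the brightest one; 162 of them had a dimmer probe set past 1.5-fold lower on both and 17 had one past it higher.

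Probe sets that name no gene went the same way. With a signal of 64 or more, 202 of 1997 were past 1.5-fold lower on both (10.1%) and 17 higher (0.851%), whereas of 10168 brightest probe sets of genes 31 were lower (0.305%) and 207 higher (2.04%). At one signal level the 3 kinds still differed: between 64 and 128, 14.0% of probe sets that name no gene, 5.16% of dimmer and 1.15% of brightest probe sets were lower on both, and 0.695%, 2.19% and 5.23% were higher. Above 1024 the shares lower were 0.441%, 0.803% and 0.0994%. Counted over all 45037 probe sets, 1892 were higher and 2244 lower, so that the excess of higher over lower genes holds for the brightest probe sets and not for all of them. What part of the transcript these probe sets read was not analysed here.

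**Figure D5:**
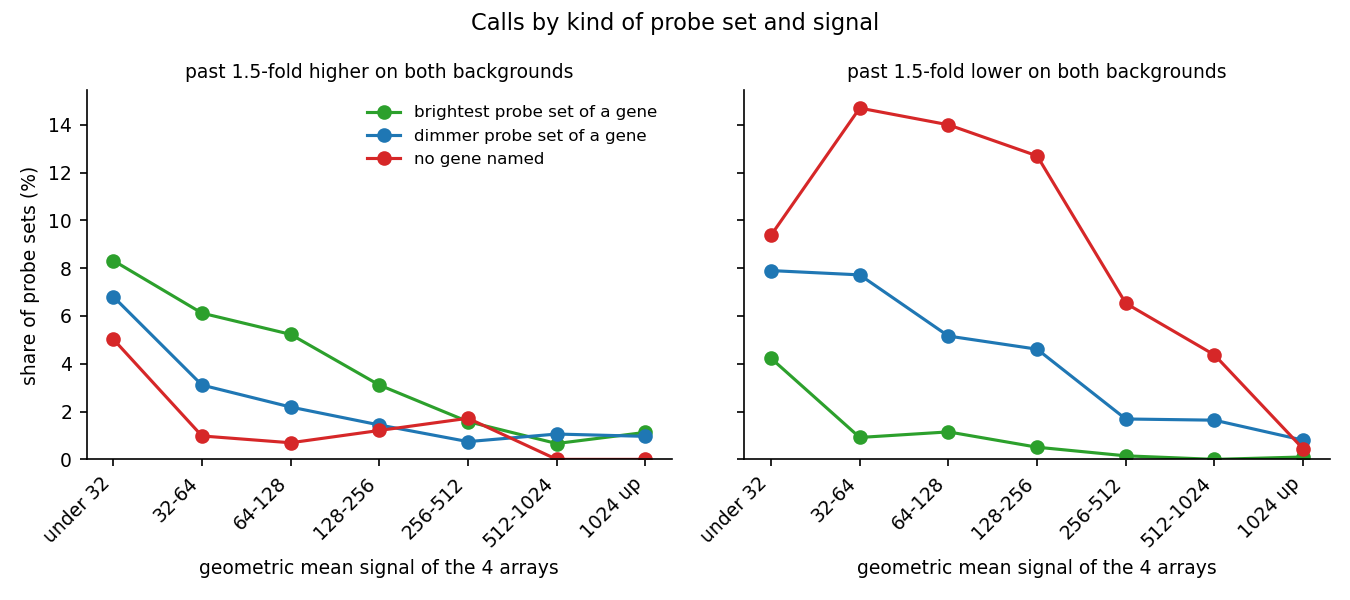
Share of probe sets (%) past 1.5-fold higher (left) and lower (right) in both XBP1 null arrays against their XBP1 intact partners, by geometric mean signal of the 4 arrays, for the brightest probe set of a gene (green), the dimmer probe sets (blue) and probe sets that name no gene (red). On the right the red line is highest up to a signal of 1024, with 14.0% between 64 and 128, against 1.15% for the brightest probe sets.

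Few genes of the other stress and housekeeping lists passed on both backgrounds. Of 32 genes of the PERK and ATF4 arm, 0 were past 1.5-fold on both, with medians of 0.72 on wild type *Matn3* and 0.07 on V194D. On wild type *Matn3* 17 were past 1.5-fold higher and 0 lower, against 4230 and 2100 of 18193 genes. On V194D 1 was higher and 1 lower, against 3171 and 1642 of all genes. *Stc2*, stanniocalcin 2, had 765 in XBP1 null and 710.4 in double mutant chondrocytes, against 253 in wild type and 608 in Matn3 mutant chondrocytes, and *Trib3*, a pseudokinase, had 2341 in XBP1 null and 2793 in double mutant chondrocytes, against 1099 in wild type and 2437 in Matn3 mutant chondrocytes. In both genes the wild type array stood below the other 3. Of 18 genes of apoptosis and p53 signalling, *Phlda3*, a p53 target that restrains AKT, was past 1.5-fold higher on both, with 555 and 531 in the XBP1 null arrays, against 359 and 309.7 in the XBP1 intact arrays. *Cdkn1a*, the cell cycle inhibitor p21, had 6958 in XBP1 null and 7764 in double mutant chondrocytes, against 3342 in wild type and 5286 in Matn3 mutant chondrocytes, 1.06 and 0.55 on the 2 backgrounds. *Galnt10*, which starts O-glycosylation and is on the list of transcripts cut by IRE1, was past 1.5-fold higher on both with 238 and 218 in the XBP1 null arrays, against 148 and 105 in the XBP1 intact arrays, the only one of 13 on that list. Of 26 proteasome genes 21 were higher on both by any amount (80.8%) with a median of 0.24. Of 15 ribosomal protein genes 14 were (93.3%), with a median of 0.16. Over all genes this held in 34.8%, with a median of 0.15. After quantile normalisation 7 of 26 and 7 of 15 were higher on both, and 1 and 0 were lower, with medians of 0.07 and 0.04. Of all 18193 genes, 4492 were then higher on both and 2761 lower, with a median of 0.05. The size of these small differences and the number of genes that share them thus depend on the scaling. Among the 25 measured genes on each side of *Xbp1* on chromosome 11, 1 of 50 was past 1.5-fold lower on both, the dim *Nefh*, and 0 were higher.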

How the data were processed

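RNA of costal chondrocytes was measured on 4 whole-genome mouse expression arrays, 1 per genotype. The deposited values are linear intensities of 45037 probe sets. Summarisation and normalisation by the authors were not given in the sources used here. Microarray Suite 5 was named for quality control, and the PPLR package, which needs errors of single probes, was not applied. Signals under 1 were set to 1 and taken as log2. Of the probe sets, 34945 name 1 gene, 932 several and 9160 none. Each of 18193 genes was read on its brightest probe set by mean log2. A gene was counted when it passed 1.5-fold the same way in both pairs. An additive model was fitted in limma 3.58.1 (R 4.3.3; eBayes with trend, Benjamini and Hochberg over all probe sets, 0.05). Tables used Python 3.11.15, numpy 2.4.6 and pandas 2.3.3. Promoters came from RefSeq (GRCm38.p6).

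Named genes were the 12 at each end above the median signal, up to 5 members and the 2 brightest of each list, the genes named by the study and the 6 with the largest opposite differences; others are said to be named after their values were seen. Members, lists and rules were chosen with earlier results of these data known. Alternatives were other scalings, floors, filters, probe set choices and each background alone.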

Additional observations from a re-analysis of the deposited data

Results flagged for a closer look

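Above the median signal, 6 genes with the largest differences of opposite sign on the 2 *Matn3* backgrounds were singled out because the null array was above its partner in one pair and below it in the other; with 1 array per genotype this difference was not tested. *Aldh1a3*, an enzyme that makes retinoic acid, had 642 in XBP1 null and 57.9 in double mutant chondrocytes, against 78.1 in wild type and 188 in Matn3 mutant chondrocytes, differences of 3.04 on wild type *Matn3* and -1.70 on V194D. *Inhba*, a subunit of activin A, had 7578 in XBP1 null and 2403 in double mutant chondrocytes, against 2775 in wild type and 6473 in Matn3 mutant chondrocytes (1.45 and -1.43). *Hao1*, a peroxisomal hydroxyacid oxidase, had 300.5 in XBP1 null and 241 in double mutant chondrocytes, against 37.6 in wild type and 627 in Matn3 mutant chondrocytes (3.00 and -1.38). *Cdh1*, E-cadherin of epithelium, had 319 in XBP1 null and 96.1 in double mutant chondrocytes, against 73.7 in wild type and 245 in Matn3 mutant chondrocytes (2.12 and -1.35). *Ndufa4l2*, a mitochondrial protein induced by hypoxia, had 209 in XBP1 null and 578 in double mutant chondrocytes, against 616 in wild type and 230.1 in Matn3 mutant chondrocytes (-1.56 and 1.33), and *Slc10a6*, a transporter of sulphated steroids, had 138 in XBP1 null and 621 in double mutant chondrocytes, against 333 in wild type and 104 in Matn3 mutant chondrocytes (-1.28 and 2.58). The first 4 were higher in XBP1 null than in wild type and lower in double mutant than in Matn3 mutant chondrocytes, and the other 2 the reverse.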

How the results depend on the processing

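The count of 0 probe sets called by limma was the same under all 7 alternatives, including no replicate block, that is the *Matn3* genotype left out of the fit, which also called 0. Genes past 1.5-fold on both backgrounds were 541 higher and 160 lower with signals under the 25th percentile set to it, 149 and 20 at or above the median signal alone, and 305 and 119 at 2-fold. By settings chosen after seeing the data they were 3171 and 1642 on V194D alone, without the XBP1 null and wild type arrays, and 1892 and 2244 over all probe sets. Centring, quantile normalisation, the median over probe sets and leaving out cross-hybridising suffixes kept both counts within 1.5 times. The correlation of the 2 differences was -0.21 at or above the median signal and -0.07 to -0.10 otherwise. List medians moved under quantile normalisation to -0.14 for the reported targets of XBP1, -0.39 for heat shock genes and -0.11 for splicing genes. The heat shock median was -0.31 over all probe sets and -0.21 on wild type *Matn3* alone. On V194D alone the median was -0.10 for the reported targets, 0.25 for osteoblast markers and 0.17 for the IGF axis. *Igfbp5* was -0.30 with cross-hybridising suffixes left out, on its dim probe set. Searching only the 250 bases before the start gave the HSF1 letters in 3 of 20 heat shock genes (15.0%), or 1 of 18 without *Hspd1* and *Hspe1*. The causes were not tested, apart from the fewer genes kept by the filter. With 1 array per genotype and 1 residual degree of freedom, no single difference has a replicate check.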
